A study of Mus musculus with 20 samples.

Results

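The 500 m6A sites described here were those whose input RNA signal differed most between mice of the same genotype in mouse heart muscle. They were taken from 13148 site probes that were well above background in the input channel on all 10 arrays, of 14319 site probes on the array. For each probe the log2 input signal was scaled to the array's 75th percentile, the mean of its genotype was subtracted, and the SD of the 10 deviations was taken. The sites with the largest SD are called the variable sites below, and the remaining 12648 the other sites. Input spread therefore defines the variable sites and is given as a description without a test.

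The samples were myocardium of male mice, 5 with NPRA-/- (KO) and 5 with NPRA+/+ (WT), with no treatment. KO mice came from an NprAflox/flox conditional line that the series title calls cardiac-specific. The Cre driver, the cells it acts in and the ages are not given in the sources used here. Each mouse gave 1 array with 2 colours, with MazF-digested and antibody-enriched RNA (modified RNA) in Cy5 and undigested input RNA in Cy3, and the labels call the mice of a genotype biological replicates.

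N6-methyladenosine (m6A) is a methyl mark on internal adenosines of RNA, placed mostly in a DRACH sequence, where D stands for any base but C, R for a purine and H for any base but G. MazF is a bacterial RNase that cuts at ACA sequences when the adenosine is not methylated, so RNA that survives digestion carries the mark at the site probed. NPRA is the receptor for the atrial and B-type natriuretic peptides and makes cyclic GMP. In this assay Cy3 reads the abundance of the transcript around a site, Cy5 reads the modified molecules, and the Cy5/Cy3 ratio reads the methylation level on a relative scale. If a transcript becomes more abundant and the methylated share stays the same, Cy5 rises as much as Cy3 and the ratio does not move. The tissue was measured in bulk, so fewer cells of a type and less RNA per cell cannot be told apart. Probes carry vendor identifiers that are not paired with genes or sequences in the sources used here, so sites are named by probe.

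Within a genotype, the highest mouse exceeded the lowest by a median of 5.03-fold in input at the variable sites (the wider of the 2 genotypes at each site), against 1.53-fold at the other sites. Their SDs ran from 0.60 to 2.96 log2 with a median of 0.75, against a median of 0.20 at the other sites. The threshold cut a continuous range. The last site inside, ASMM10m6ADRACA1004548404, had an SD of 0.596, and the first outside, ASMM10m6ADRACA1004224814, had 0.595. Repeat spots of a probe on 1 array had a median SD of 0.0403 log2 (23 probes), and the error that the extraction software gave for spots of the variable sites had a median of 0.144 log2. These are errors within an array, and leave out labelling and differences between arrays.

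Most of the variable sites fell into 3 patterns, defined by the mouse with the largest input deviation. KO1 was the farthest mouse and high at 189 sites, WT1 was farthest and high at 156, and WT3 was farthest and low at 90. At 15 more sites 1 mouse alone held over 0.7 of the summed squared deviations, and 50 sites had another leading mouse or direction. These classes were cut from the same input values and describe them.

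**Figure D1:**
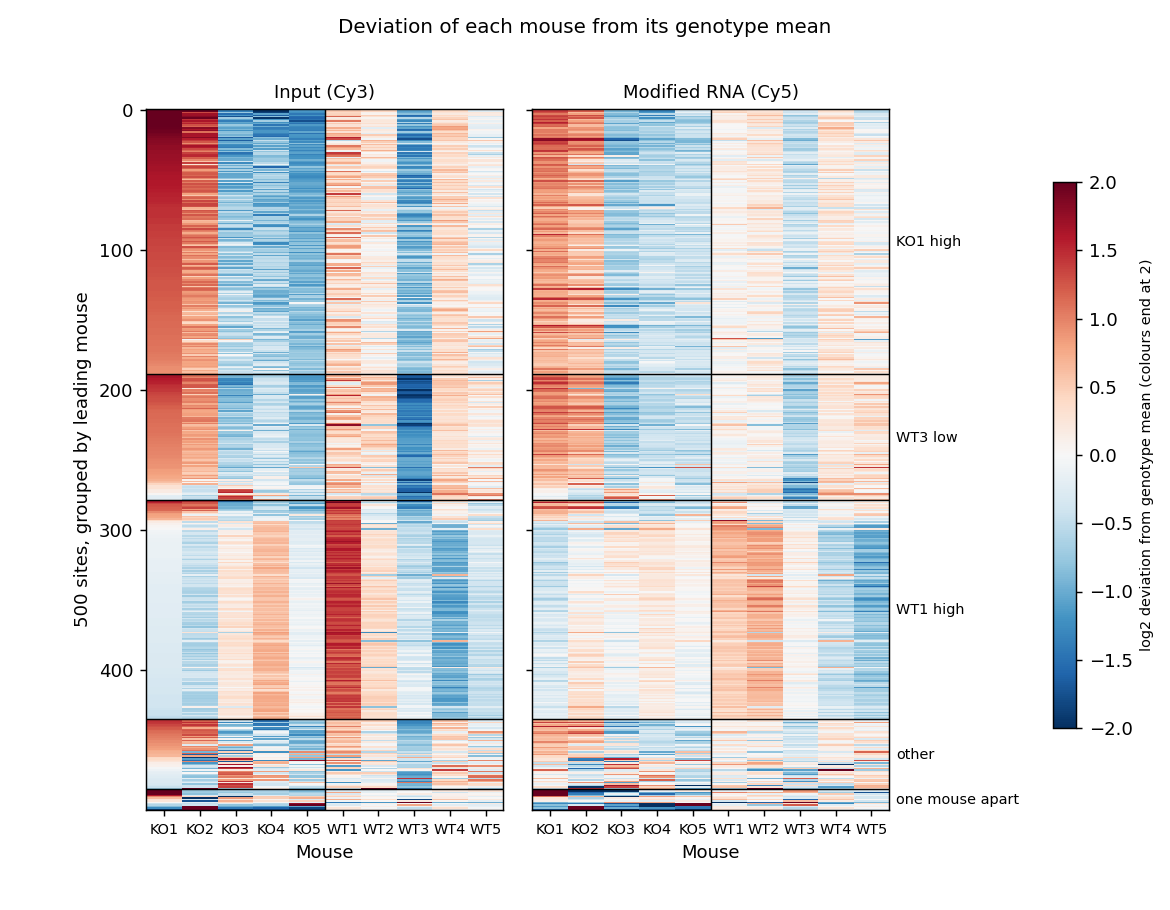
Log2 deviation of each mouse from its genotype mean at the 500 variable sites, in input (left) and modified RNA (right). Rows are sites grouped by leading mouse, columns are mice with KO left of WT, and colours end at 2 in both directions. In the blocks named KO1 high and WT3 low, KO1 and KO2 are red and WT3 is blue in both channels. In the block named WT1 high, WT1 is the reddest mouse in input, whereas WT2 is as red as WT1 in modified RNA. All 500 sites are drawn in both channels, of which 481 were above background in Cy5 on all arrays.

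KO1 and KO2 moved together, against KO3, KO4 and KO5. Both were above the other 3 KO mice at 305 of the 500 sites (61%), against 7.35% of the other sites. The opposite order, both below, was found at 106 variable sites (21.2%), close to the 19.8% at the other sites. WT3 was the lowest WT mouse at 334 variable sites (66.8%), against 35.2% of the other sites. The KO and WT orders came on the same sites: at 295 (59%) KO1 and KO2 were above the other KO mice and WT3 was lowest among WT, against 2.92% of the other sites.

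Site ASMM10m6ADRACA1003952664, which had the largest SD in the KO1 pattern among sites without a flagged spot and was picked after the values were seen, showed this order. Its scaled log2 input was 4.86, 4.41, 0.84, 1.78 and 1.07 in KO1 to KO5, and 3.10, 2.26, 0.51, 2.24 and 1.69 in WT1 to WT5. Its scaled log2 modified RNA was 4.94, 4.63, 2.47, 2.97 and 2.76 in the KO mice, and 3.07, 3.29, 2.32, 3.35 and 2.78 in the WT mice. KO1 and KO2 were high and WT3 low in both channels. The highest KO mouse stood 16.2-fold above the lowest in input but 5.55-fold in modified RNA.

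The WT3 pattern had the same mice on either side. Site ASMM10m6ADRACA1003606364, picked in the same way, had a scaled log2 input of 7.08, 6.79, 4.19, 5.08 and 4.43 in KO1 to KO5, and 6.62, 5.40, 3.59, 5.85 and 4.56 in WT1 to WT5. The modified RNA at this site was 5.76, 5.56, 3.96, 4.29 and 4.33 in the KO mice, and 4.32, 4.08, 3.59, 4.31 and 4.22 in the WT mice. WT3 was the lowest of the 10 mice in both channels. WT1 was close to KO2 in input and close to the other WT mice in modified RNA. Of the 90 sites of this pattern, 77 had KO1 and KO2 above the other KO mice. Their median input signal was 4.90 scaled log2, with 2.77 in the KO1 pattern and 1.47 in the WT1 pattern.

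The WT1 pattern involved other mice. KO4 was the highest KO mouse at 140 of its 156 sites, and WT4 the lowest WT mouse at 131. Over the 156 sites the median input deviation was 0.61 log2 in KO4, 1.38 in WT1 and -0.94 in WT4. WT1 was the highest WT mouse and KO4 the highest KO mouse at 141 of all variable sites (28.2%), against 6.67% of the other sites. Not all sites of this class looked alike: at 14 of the 156, KO1 and KO2 were above the other KO mice. One of those, ASMM10m6ADRACA1000755564, had the largest deviation of WT1, with a scaled log2 input of 5.74, 5.47, 3.12, 3.40 and 3.25 in KO1 to KO5, and 6.04, 3.33, 2.95, 3.65 and 3.83 in WT1 to WT5.

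After the 15 sites led by a single mouse were set aside, 2 axes of a singular value decomposition held 66.6% and 20.7% of the summed squared input deviations. On the first axis KO1 (weight 0.53) and KO2 (0.41) stood opposite WT3 (-0.42), KO5 (-0.37), KO3 (-0.30) and KO4 (-0.28). On the second WT1 (0.74) and KO4 (0.29) stood opposite WT4 (-0.43) and WT3 (-0.26). Over all 500 sites KO1 held 19.6% of the summed squares, KO2 16.2%, WT3 14.5% and WT1 13.0%, while WT5 held 2.10%. The spread was wider among KO than among WT mice at 321 sites (64.2%), against 39.5% of the other sites.

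Correlations over sites gave a partly different grouping. They remove the mean of each mouse over the sites, so they compare sites with each other rather than mice within a site. KO1 and WT1 correlated at -0.45 over the variable sites, although WT1 had a median input deviation of 0.42 in the KO1 pattern. Deviations of a genotype sum to 0, which pushes mice of 1 genotype to a mean correlation of -0.25, so only the 25 pairs of a KO with a WT mouse were read, and as descriptions. Input deviations of KO1 and WT4 correlated at 0.72 over the variable sites and at 0.35 over the other sites. For KO2 and WT4 the values were 0.61 and -0.27, and for KO4 and WT4 they were -0.78 and 0.03. KO5 and WT3, which lay in the same array column, correlated at 0.57 over the variable sites and at 0.78 over the other sites. KO1 and WT1, which also shared a column and a scan date, had -0.45 and 0.09. KO2 and WT2 did so too and had 0.01 and -0.02. The part of the column was not tested. The sign at the variable sites was the same as at the other sites in 9 of the 25 pairs, and was the same in input and modified RNA of the variable sites in 22.

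**Figure D2:**
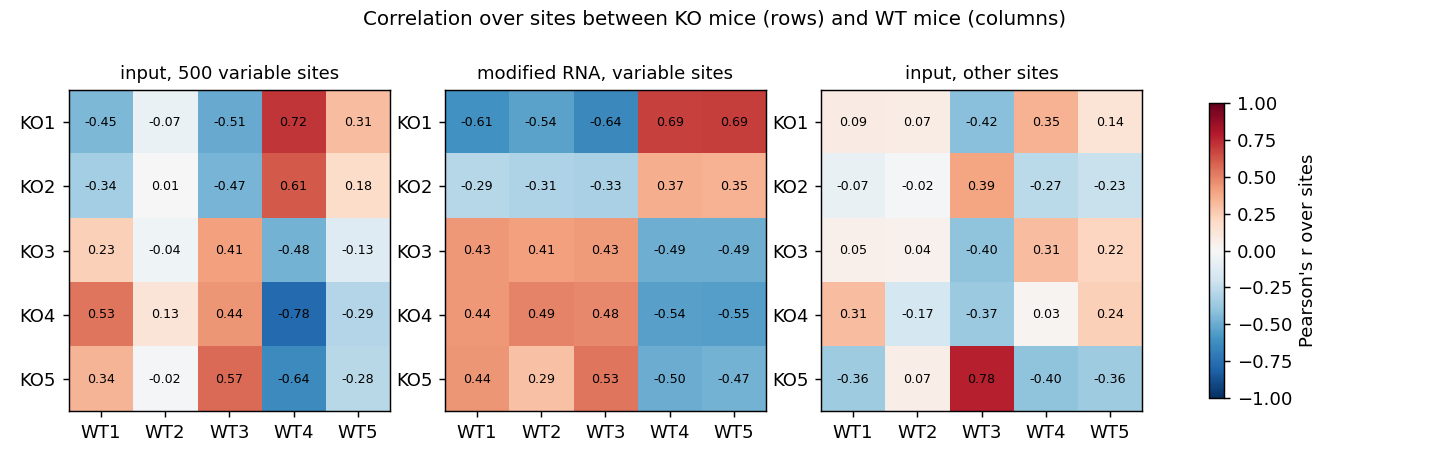
Pearson's r over sites between the deviations of each KO mouse (rows) and each WT mouse (columns), for input at the variable sites, modified RNA at the variable sites and input at the other sites. Over variable sites KO1 and KO2 correlate positively with WT4 and WT5 and negatively with WT1 and WT3 in both channels, and KO3, KO4 and KO5 the reverse. Over the other sites KO5 with WT3 has the highest value, 0.78.

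The arrays' headers gave a scan date and an array position. All 5 KO mice and WT1 to WT3 shared 1 scan date, and WT4 and WT5 shared another. These groups are called slide 1 and slide 2 here, and WT4 and WT5 repeated the positions of KO4 and KO1. The header fields used here name no slide, so slide and scan date cannot be told apart. KO1 and KO2 lay next to each other in row 1 of slide 1, between KO4 and KO5, and WT1, WT2 and WT3 lay in row 2 with KO3. The part of array position in the patterns was not tested. The 75th percentile of input that each array was scaled to moved with the first pattern in the KO mice and WT3, but not in every WT mouse. It was 9.89, 9.97, 10.31, 10.13 and 10.33 log2 in KO1 to KO5, and 10.20, 9.97, 10.58, 9.60 and 9.55 in WT1 to WT5, lowest among KO mice in KO1 and KO2 and highest of all in WT3. WT5 was lowest of all, with a weight of -0.004 on the first axis, and WT1 was next to WT3 among WT mice, with a weight of 0.19. When arrays were scaled to their median or to spike-in RNA instead, 490 and 443 of the 500 sites were chosen again, and KO1 held 19.1% and 18.2% of the summed squares. The share of site probes above background ran from 93.6% to 98.0% in Cy3, lowest in WT1, and from 45.1% to 78.2% in Cy5, lowest in WT5 (45.1%) and WT4 (47.9%) and highest in WT1. The number of arrays limits the precision of every value.

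Each of the 6 sites with the largest SDs had a flagged input spot, and 4 of them were led by 1 mouse. At ASMM10m6ADRACA1002431094, the site of largest SD (2.96), the scaled log2 input was -3.07, 6.81, -3.36, -2.94 and -3.05 in KO1 to KO5, and -2.58, -2.67, -3.06, -2.80 and -2.72 in WT1 to WT5. KO2 alone was high, and its spot was flagged as non-uniform. KO2 alone was also high at ASMM10m6ADRACA1001081064 (7.32 in KO2, and -0.60 to 0.25 in the other 9 mice) and at ASMM10m6ADRACA1001443924 (6.50 in KO2, and 1.19 to 1.58 in the others). WT3 alone was high at ASMM10m6ADRACA1000553884 (2.30 in WT3, and -3.84 to -3.17 in the others). All of these spots were flagged.

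Of the 15 sites led by 1 mouse, 11 were high in that mouse, and its spot was flagged as non-uniform at each of them in both channels. The other 4 were low in 1 mouse with no flag. In all, 30 variable sites had a flagged Cy3 spot, of 60 eligible sites with one, and of the 56 flagged Cy3 spots at variable sites KO1 held 20 and KO2 16. The remaining sites among the 6 largest, ASMM10m6ADRACA1004272874 and ASMM10m6ADRACA1003534644, had the KO1 pattern. Input at the first of them was 4.47, 4.15, 0.44, -0.39 and 0.73 scaled log2 in KO1 to KO5, and 1.20, 1.27, -0.68, 1.17 and 0.41 in WT1 to WT5, with flagged spots in KO1 and WT2, and it was also the site where KO4 deviated most. Spots of KO1, KO2 and WT2 were flagged at the second.

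Other mice led at fewer sites. KO3 was low by itself at ASMM10m6ADRACA1004005404, where scaled log2 input was 0.21, -0.36, -3.16, -0.26 and -0.30 in KO1 to KO5, and 0.74, 0.40, -0.19, 0.41 and 0.12 in WT1 to WT5. Modified RNA there was 2.64, 2.18, -1.63, 2.41 and 2.14 in the KO mice, and 2.74, 2.88, 2.12, 2.75 and 2.18 in the WT mice, so that KO3 was low in both channels with no flagged spot. At ASMM10m6ADRACA1001454804 input was -3.42, -0.69, -3.30, -2.44 and -3.48 in the KO mice, and -2.46, 0.53, -3.52, -2.29 and -2.86 in the WT mice, with KO2 and WT2 high. The farthest mouse was WT5 at ASMM10m6ADRACA1004919524 (3.67, against 1.55 to 2.61 in WT1 to WT4), WT4 at ASMM10m6ADRACA1004458214 (-1.42, against -3.97 to -2.79 in the other WT mice, with a flagged WT4 spot), KO5 at ASMM10m6ADRACA1001295234 (2.27, against -0.96 to -0.56 in KO1 to KO4, with a flagged KO5 spot) and KO1 at ASMM10m6ADRACA1002619214 (3.38, against -1.65 to -1.24 in KO2 to KO5, with a flagged KO1 spot).

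Most of the variable sites had a bright input signal. Their median was 2.53 scaled log2, against -1.43 at the other sites, and 397 of the 500 (79.4%) lay in the highest of 5 equal bins of all eligible sites by signal, while 8 lay in the lowest. Probes differ in affinity, so signals of different probes do not rank transcripts by abundance. That bin had a median SD of 0.25 log2, and the lower 4 had medians of 0.19 to 0.22. Modified RNA was above background on all 10 arrays at 481 variable sites (96.2%), against 43.2% of the other sites. The mean log2 Cy5/Cy3 ratio, centred on each array's median, had a median of 0.95 over the variable sites and 0.42 over the other sites.

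The next question was whether Cy5 follows Cy3 from mouse to mouse or the ratio shifts. Both happened: modified RNA moved in the direction of input at nearly every variable site, but by less. Input and modified RNA of a mouse were read from the same spots of the same array. The part of spot or array effects shared by the channels in this relation was not tested. The relation was tested at 5882 sites that were detected in Cy5 as well as Cy3 on every array and had no flagged spot, 455 of them variable sites. At each site Pearson's r of the Cy5 and Cy3 deviations over the 10 mice was set against all 14400 assignments of Cy5 values among the mice of a genotype (exact two-sided permutation test, Benjamini-Hochberg adjusted over all sites tested).

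The median r was 0.87 at the variable sites and 0.54 at the other sites tested, and r was positive at 454 of 455 variable sites. Of these, 95 passed the adjusted threshold of 0.05 with a positive r and 0 with a negative one, beside 5.56% and 0.017% of all sites tested. Unadjusted p was under 0.05 at 306 variable sites (67.3%), against 32.9% of all sites tested. A wide input spread makes a relation easier to detect, so these shares are not read as particular to the variable sites. Without the 2 mice farthest from the median input at each site the median r was 0.82, and it was positive at 453 sites. The adjusted count was 0 under slide-stratified permutation, on slide 1 alone and in 9 of the 10 fits that left out 1 mouse, where fewer assignments exist, and also in the deposited value table and when sites with Cy5 above background on at least 5 arrays were included. The unadjusted count stayed between 210 and 342 in the settings tried.

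Site ASMM10m6ADRACA1000046294 had the highest r of the sites that passed. Input was 3.34, 2.76, 0.50, 0.73 and 0.27 scaled log2 in KO1 to KO5, and 0.81, 1.25, -0.11, 0.97 and 0.86 in WT1 to WT5. Modified RNA was 3.67, 3.24, 1.56, 1.75 and 1.41 in the KO mice, and 1.72, 2.02, 1.26, 1.93 and 1.96 in the WT mice. KO1 and KO2 were high and WT3 low in both channels. Pearson's r was 0.995 (exact permutation p = 0.000139, adjusted p = 0.0355), Spearman's rho was 0.976 (exact permutation p = 0.000417), and r was 0.989 without the 2 farthest mice. The adjusted call held in 6 of 20 alternatives, with r of 0.959 to 0.997 and exact permutation adjusted p up to 0.101.

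At ASMM10m6ADRACA1001927154 input was 8.18, 8.12, 6.68, 6.91 and 6.47 scaled log2 in KO1 to KO5, and 7.16, 7.37, 6.23, 7.79 and 7.61 in WT1 to WT5, and r was 0.989 (exact permutation adjusted p = 0.0360). This call held in 2 of 20 alternatives, and r was 0.459 with normexp. ASMM10m6ADRACA1002969134 had another order of mice. Its input was -1.59, -1.84, -0.02, -1.57 and -1.86 in the KO mice, and 0.03, 0.08, -1.81, -0.09 and -0.42 in the WT mice, with KO3 high and WT3 low by themselves. Modified RNA there was 0.17, -0.37, 1.49, 0.17 and -0.24 in the KO mice, and 1.14, 1.01, -0.70, 0.95 and 0.83 in the WT mice. Pearson's r was 0.988 (exact permutation adjusted p = 0.0446). The call held in 4 of 20 alternatives, with r of 0.937 to 0.993 and exact permutation adjusted p up to 0.113. The slope of Cy5 on Cy3 was 0.95, close to the slope of 1 that leaves the ratio unchanged.

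Most slopes were lower. Over the 455 sites the median slope was 0.54 (jackknife SE over mice 0.0754), and 442 sites (97.1%) had a slope below 1. At the other sites tested the median slope was 0.72, and 68.0% had a slope below 1. With normexp the median slope was 0.57 at the variable sites and 0.46 over all sites tested, the opposite order. The count of variable sites with a slope below 1 was then 345 of 455, so it depended on the background correction. The SD of Cy5 was a median of 0.65 of the SD of Cy3 at the variable sites, and 1.52 times it at the other sites. Error in Cy3 pulls a slope towards 0, and choosing sites for a large Cy3 SD does so too. With signals before dye normalization the median slope was 0.64, an alternative chosen after the data were seen. Those signals were also scaled to the array's median, which by itself gave a median slope of 0.56.

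**Figure D3:**
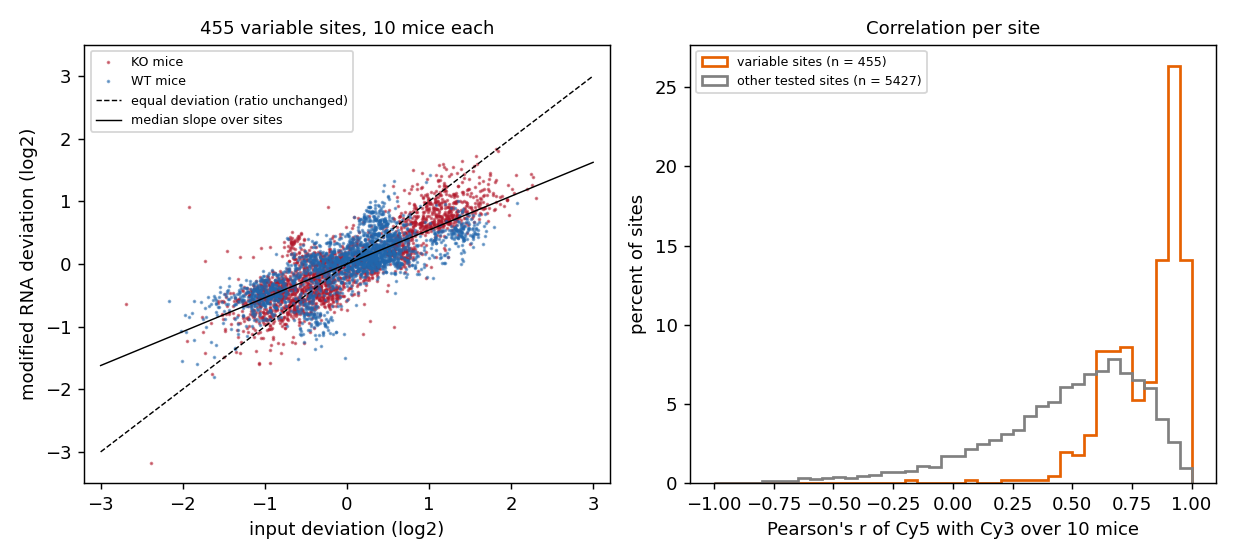
Left, modified RNA deviation against input deviation (log2) at the 455 tested variable sites, 1 point per site and mouse, with the line of equal deviation (dashed) and the median slope of 0.54 (solid). Right, the percentage of variable and of other sites by Pearson's r of Cy5 with Cy3 over 10 mice. Most points far from 0 in input lie between the dashed line and 0, and the variable sites gather at higher r than the others, with medians of 0.87 and 0.54.

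The ratio therefore moved against input where input was far from its mean. Over the 455 sites, 999 single values in 437 sites had an input deviation larger than 1 log2 unit in size. Modified RNA deviated in the same direction in 991 of them, and the ratio in the opposite direction in 953 (95.4%). The ratio contains Cy3, so an excess of Cy3 alone would also lower it. Since these values were chosen for a large Cy3 deviation, the opposite direction is in part built in. The counts pool sites and mice, restate the slopes below 1 and are a description. KO1 held 233 of these values, with the ratio opposite in 216. For WT1 this was 179 of 179, for WT3 168 of 169 and for KO5 105 of 105, while KO2 had 113 of 128 and KO3 had 59 of 69.

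How closely Cy5 followed differed with the pattern. In the KO1 pattern the median input and modified deviations were 1.35 and 0.89 log2 in KO1, 0.98 and 0.65 in KO2, -0.97 and -0.43 in KO5, and -0.89 and -0.45 in WT3. KO1 was also the farthest mouse in modified RNA at 153 of 189 sites, and the median r was 0.93. In the WT3 pattern WT3 had a median of -1.33 in input and -0.60 in modified RNA, KO1 had 1.05 and 0.87, and WT3 was the farthest mouse in modified RNA at 13 of 90 sites. The median r there was 0.90.

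The WT1 pattern followed less closely. WT1 had a median deviation of 1.38 in input and 0.52 in modified RNA, whereas WT2 had 0.34 in input and 0.69 in modified RNA, and WT5 had -0.41 and -0.76. WT1 was the farthest mouse in modified RNA at 2 of the 155 sites above background, although it was on the high side at 153. The median r was 0.68, the median slope 0.45, and 4 of 155 sites (2.58%) passed the permutation test, with 26 (16.8%) at an unadjusted p under 0.05, against 5.56% and 32.9% of all sites tested. In the ratio WT1 had a median deviation of -0.84, and KO2 had 0.55. Differences between the patterns were not tested, since input chose both the sites and the classes.

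**Figure D4:**
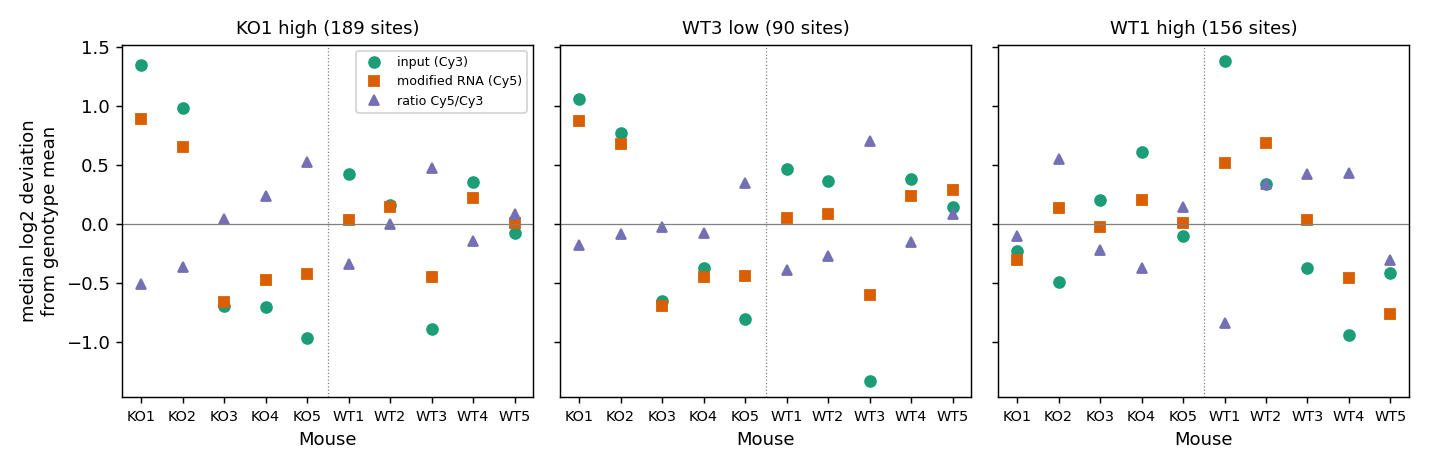
Median log2 deviation from the genotype mean for each mouse in the 3 patterns, in input (circles), modified RNA (squares) and the Cy5/Cy3 ratio (triangles), with KO left of WT. In the KO1 and WT3 patterns the squares lie on the same side of 0 as the circles, except for WT5 in the KO1 pattern (-0.07 in input, 0.01 in modified RNA). The squares are mostly nearer to 0, but farther from it in KO3, KO4 and WT5 of the WT3 pattern. The triangles of the farthest mice lie on the other side of 0 from their circles. In the WT1 pattern WT2 exceeds WT1 in modified RNA, 0.69 against 0.52.

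At 2 of the 455 variable sites tested r was between -0.2 and 0.2, and it was higher at the remaining ones. ASMM10m6ADRACA1002179124 had an input of 4.56, 2.22, 4.71, 4.27 and 4.94 scaled log2 in KO1 to KO5, and 2.77, 3.68, 4.60, 4.29 and 3.94 in WT1 to WT5. Its modified RNA was 3.01, 3.55, 1.64, 2.30 and 2.73 in the KO mice, and 1.02, 1.52, 2.14, 2.02 and 1.96 in the WT mice. KO2 was lowest of the KO mice in input and highest in modified RNA. With r of -0.19 the site did not pass (exact permutation p = 0.656), and r was 0.63 without KO2. At ASMM10m6ADRACA1003426924 KO2 was again low in input, 0.14 against 2.11 to 2.58 in the other KO mice and 2.19 to 2.59 in the WT mice. In modified RNA KO2 had 3.47 there, within the 3.21 to 3.61 of the other KO mice (r = 0.07, exact permutation p = 0.848). This depended on the scaling: r was 0.53 with quantile normalization, where the site passed (exact permutation adjusted p = 0.0385), and 0.59 in the deposited table, where it did not.

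**Figure D5:**
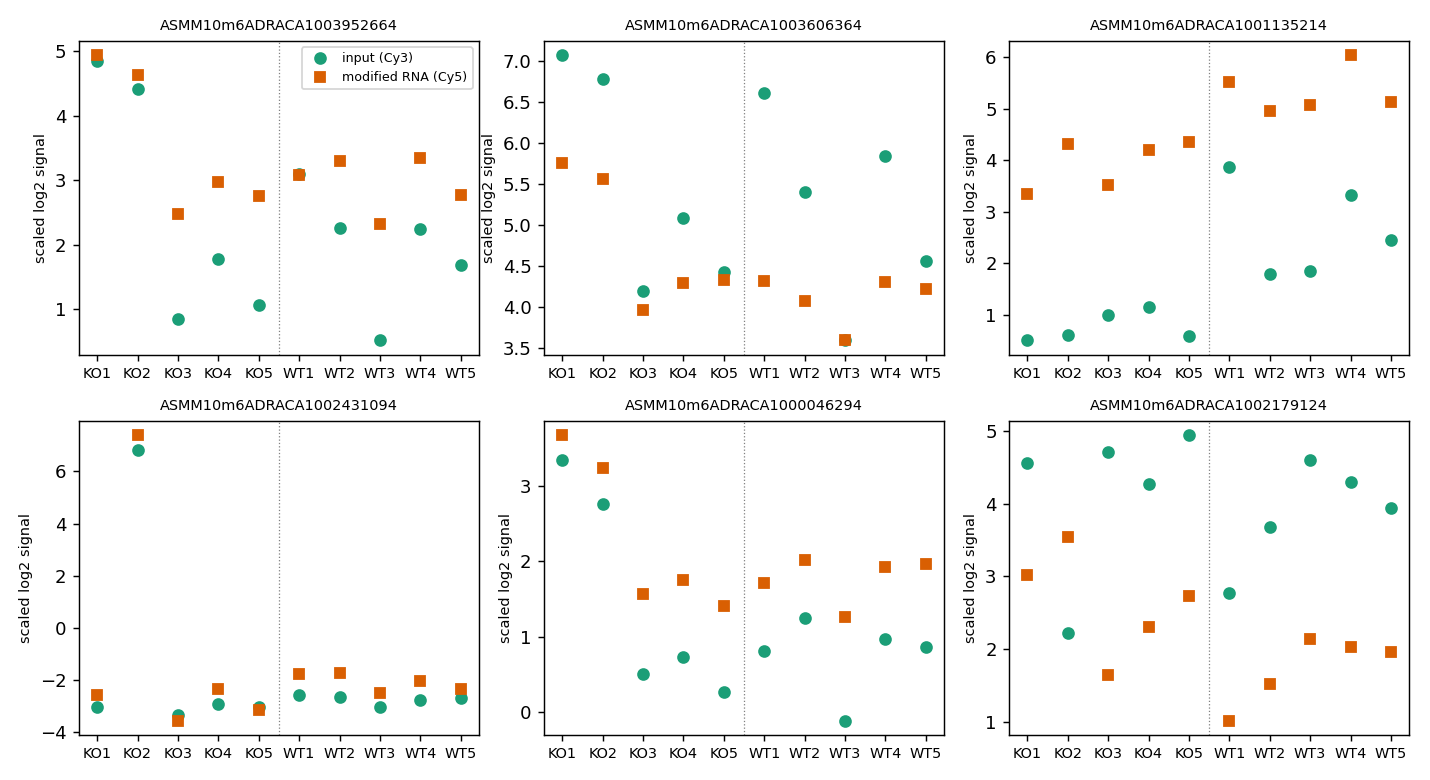
Scaled log2 signal of input (circles) and modified RNA (squares) in each mouse at 6 variable sites, KO left of WT, with an axis of its own for each site. The first 2 sites show the KO1 and WT3 patterns, the third (ASMM10m6ADRACA1001135214) is lower in KO in both channels, and the fourth is high in KO2 alone. At the fifth Cy5 follows Cy3 with r of 0.995, and at the sixth KO2 is low in input and high in modified RNA.

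KO and WT mice were then compared at the variable sites with limma, fitted on all probes above background on at least 5 arrays. In input 0 of the 500 variable sites were higher and 2 were lower in KO at an adjusted p under 0.05, against 0.717% higher and 1.08% lower of all probes tested. The rule chose a large spread within genotypes, which is the error of this test, so the count is a description. In modified RNA 0 of 488 were higher and 3 lower, against 0.129% and 0.794% of all probes. In the ratio 0 of 488 passed, against 0.0% of all probes, with a smallest adjusted p of 0.411, and 24 (4.92%) had an unadjusted p under 0.05, against 8.95% of all probes.

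The sites lower in KO in both channels were ASMM10m6ADRACA1001135214 and ASMM10m6ADRACA1002387754, both of the WT1 pattern. The first had a scaled log2 input of 0.51, 0.61, 0.99, 1.15 and 0.59 in KO1 to KO5, and 3.88, 1.79, 1.86, 3.34 and 2.45 in WT1 to WT5, and the groups did not overlap. Its modified RNA was 3.35, 4.31, 3.53, 4.20 and 4.36 in the KO mice, and 5.51, 4.95, 5.07, 6.04 and 5.12 in the WT mice, again with no overlap. Input was lower by 1.88 log2 units in KO (limma KO minus WT -1.88 with an SE of 0.36, adjusted p = 0.0302), and modified RNA by 1.39 (limma KO minus WT -1.39 with an SE of 0.27, adjusted p = 0.0384). The ratio did not pass (limma KO minus WT 0.43 with an SE of 0.33, adjusted p = 0.707).

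ASMM10m6ADRACA1002387754 had an input of -0.36, -0.34, 0.06, 0.16 and -0.40 in the KO mice, and 2.76, 0.82, 0.54, 2.19 and 1.26 in the WT mice (limma KO minus WT -1.68 with an SE of 0.36, adjusted p = 0.0418). Its modified RNA was 2.56, 3.53, 2.76, 3.29 and 3.33 in the KO mice, and 4.84, 4.23, 4.38, 5.39 and 4.17 in the WT mice (limma KO minus WT -1.51 with an SE of 0.27, adjusted p = 0.0341). No KO mouse reached the lowest WT mouse in either channel. The remaining site called in modified RNA, ASMM10m6ADRACA1000427234, is named after its values were seen, since its groups overlap. Modified RNA was 2.16, 1.96, 3.25, 2.05 and 2.04 in the KO mice, and 3.68, 3.81, 3.00, 3.84 and 3.42 in the WT mice, with KO3 above WT3 (limma KO minus WT -1.25 with an SE of 0.27, adjusted p = 0.0452). These calls did not hold in every setting, as the part on processing gives.

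The modified RNA count moved most when WT4 and WT5, the only mice on slide 2, did not set the WT level. Slide 2 held no KO mouse, so a slide block and slide 1 alone both compare KO with WT1 to WT3. They give the same change (median -0.85 log2 in the WT1 pattern in both) and are not 2 separate results. With slide as a block 70 of the 488 variable sites passed, all lower in KO, against 3.82% of all probes lower in KO. Of these 70, 69 were of the WT1 pattern, 69 of the 155 sites of that pattern tested. That class was chosen for a high WT1 in input, and WT1 was also on the high side in modified RNA at 153 of the 155 sites, so a higher WT level where WT1, WT2 and WT3 alone set it is in part built in, and the count is a description. With slide 1 alone 68 passed, all lower in KO, 67 of them of the WT1 pattern, against 3.62% of all probes. The median change of the 70 sites was -1.12 log2 (KO minus WT), ranging from -1.60 to -0.84.

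Levels by mouse in the WT1 pattern set WT1, WT2 and WT3 apart in modified RNA. Median modified RNA over its 155 sites was 4.01, 4.34, 4.16, 4.35 and 4.20 scaled log2 in KO1 to KO5, and 5.13, 5.38, 4.75, 4.25 and 3.86 in WT1 to WT5. The 3 WT mice on slide 1 were above all KO mice, and the WT mice on slide 2 were not. Median input over the 156 sites was 0.89, 0.60, 1.18, 1.60 and 0.90 in the KO mice, and 3.36, 2.15, 1.51, 0.98 and 1.44 in the WT mice. For WT4 and WT5, slide and mouse cannot be told apart. Input chose these sites and their class, so no genotype test of it is given here. The ratio had 0 adjusted calls by limma at these sites with slide as a block, and 21 of 155 (13.5%) had an unadjusted p under 0.05, against 9.32% of all probes.

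The KO1 and WT3 patterns gave 0 calls between genotypes in any of the 3 measures with all mice in the fit. In the KO1 pattern the median KO minus WT was 0.41 log2 in input and 0.46 in modified RNA, carried by KO1 and KO2. Median input over its 189 sites was 4.54, 4.15, 2.33, 2.23 and 2.05 scaled log2 in KO1 to KO5, and 3.14, 2.66, 1.58, 2.96 and 2.47 in WT1 to WT5. KO3, KO4 and KO5 lay below 4 of the WT mice and above WT3. Unadjusted p was under 0.05 at 2 of 189 sites (1.06%) in input and 21 of 188 (11.2%) in modified RNA, against 20.1% and 15.9% of all probes. The input share is a description, since the rule chose a wide input spread within genotypes, which is the error of this test.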

How the data were processed

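The authors deposited scanner output in units of spot intensity. Agilent Feature Extraction 11.0.1.1 made it, per the submitters' processing notes. Per the file headers, background was subtracted to give the processed signal, and the dyes were then normalized on each array. No dyes were swapped, so dye and enrichment cannot be told apart. Both samples of a mouse held the same scan in all 10 mice, and each mouse counted once. The authors also deposited a table of log2 values for 10004 probes, each column equal to log2 of the processed signal minus 1 constant (within 0.001), and served as an alternative. No label or header names that constant.

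Log2 signals were scaled to each array's 75th percentile, and ratios were centred on the array's median. Spots flagged as outliers stayed in the choice and description of the variable sites and were left out of the tests. Genotypes were compared in limma 3.58.1 under R 4.3.3 (lmFit and eBayes, Benjamini-Hochberg adjustment over all probes tested, threshold 0.05, above background on at least 5 arrays). Cy5 was set against Cy3 by exact permutation in Python 3.11.15. Steps were tested on simulated data.

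Members, classes and tests were chosen with earlier results of these data known. Sites to name were the 6 of largest SD, those beside the threshold, the site of largest deviation for each mouse, those with the highest and lowest r, and called sites whose groups do not overlap. Alternatives were other scalings, filters, background corrections (normexp with an offset of 50) and blocks, the deposited table, and leaving out each mouse. Genes and probe sequences were not used here.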

Additional observations from a re-analysis of the deposited data

Results flagged for a closer look

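Modified RNA of the named sites was looked at for a mouse that stood apart from the other 4 of its genotype (Dixon's criterion). The same was done for the arrays' input scaling level and their shares of site probes above background. Together, 10 of 50 groups of 5 had one, where chance gives about 5%. All 10 were in modified RNA of the named sites, so the share among those groups alone is higher. The sites were partly chosen for a large deviation of 1 mouse in input. In scaled log2 units, KO2 had 7.39 at ASMM10m6ADRACA1002431094 (next KO mouse -2.37), 7.43 at ASMM10m6ADRACA1001081064 (next 2.21) and 7.44 at ASMM10m6ADRACA1001443924 (next 0.22). KO1 had 4.85 at ASMM10m6ADRACA1002619214 (next -1.24), and KO5 had 2.74 at ASMM10m6ADRACA1001295234 (next -2.01). WT3 had 3.15 at ASMM10m6ADRACA1000553884 (next WT mouse -3.84), and WT4 had 0.20 at ASMM10m6ADRACA1004458214 (next -3.84). The spot was flagged as non-uniform at each of these 7 sites. No spot was flagged at the others: KO3 had -1.63 at ASMM10m6ADRACA1004005404 (next KO mouse 2.14), and at ASMM10m6ADRACA1002969134 KO3 had 1.49 (next KO mouse 0.17) and WT3 had -0.70 (next WT mouse 0.83).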

How the results depend on the processing

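The choice of sites was stable: 378 to 493 of the 500 were chosen again in the 18 settings, 386 to 493 when 1 mouse was left out. The share of summed squares held by KO1 was 33.4% without KO2 and moved by less than the SD between mice in the other 14 settings, and was 16.2% to 33.4% over those leaving out a mouse. The input count of 2 variable sites was 0 with the replicate block, with slide as a block, on slide 1 alone, with normexp and with spike-in scaling, 1 in the deposited table, and 0 to 16 when 1 mouse was left out (16 without WT3, 10 without KO3, 0 without KO1, KO2, KO5, WT4 or WT5). Over all probes, 1105 of 13938 were called without WT3 and 575 of 13938 without KO3, beside 499 variable sites tested in each. Without both KO3 and WT3, an alternative chosen after the data were seen, the input count was 26, 25 of them lower in KO, against 11.1% of all probes lower in KO. The modified RNA count of 3 was 0 with the replicate block, without a filter on dim probes, with normexp and with spike-in scaling, 6 when all 10 arrays had to be above background, 7 in the deposited table, 70 with slide as a block, 68 on slide 1 alone, and 0 to 4 when 1 mouse was left out (0 without KO1, KO5, WT1, WT3 or WT4, and 1 without KO3). Beside the 6 and 7, 165 of 5992 and 172 of 10004 of all probes were called. Same-numbered KO and WT mice deviated together with r of -0.23 to 0.18 in input. A weak correlation does not exclude a pairing, so whether the numbers pair the mice is not known. The ratio count was 0 in all 18 settings. The count of 95 where Cy5 follows Cy3 was 0 with slide strata, on slide 1 alone, with Cy5 above background on at least 5 arrays and in the deposited table, 50 with quantile normalization, 26 with normexp, 1 with array medians, and 0 to 17 when 1 mouse was left out (17 without WT2, 0 without any other). Of all sites tested, 2.52% passed with quantile normalization, 3.62% with normexp, 0.17% with array medians and 1.44% without WT2. The median r over the variable sites was 0.71 to 0.90 and the median slope 0.47 to 0.64 in the 20 settings. The slope was highest with signals before dye normalization (0.635), which were also scaled to the array's median. For ASMM10m6ADRACA1002179124 r turned to 0.0363 with quantile normalization, 0.117 with spike-in scaling, 0.0542 with normexp, 0.116 in the deposited table, 0.107 before dye normalization and 0.63 without KO2, and ran from -0.52 to 0.63 over the fits leaving out 1 mouse. For ASMM10m6ADRACA1003426924 it turned to -0.0485 with array medians and -0.0320 without WT3, the lowest of the fits leaving out 1 mouse, which ran up to 0.53, and was 0.527 with quantile normalization, 0.46 with spike-in scaling and 0.59 in the deposited table. For ASMM10m6ADRACA1001927154 r was 0.46 with normexp and 0.79 before dye normalization, and the call held in 2 of 20 settings. The sites called lower in KO kept their direction in all 21 settings, with input adjusted p of 0.00864 to 0.148 (ASMM10m6ADRACA1001135214) and 0.00942 to 0.173 (ASMM10m6ADRACA1002387754), and modified RNA adjusted p of 0.0170 to 0.204, 0.0144 to 0.213 and 0.0142 to 0.231 (ASMM10m6ADRACA1000427234). The causes were not tested. Leaving out mice or splitting slides leaves fewer assignments to permute, and the part of this in the counts was not tested either. Signal over background also limits Cy5, with 45.1% and 47.9% of the site probes above background in WT5 and WT4.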
